A study of Homo sapiens with 12 samples.

Results

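Glycolysis, the control of pyruvate and the hypoxia response were followed through 37 listed genes in 2 lung cancer lines kept under erlotinib. The genes are the glucose transporters and hexokinases, the enzymes that carry glucose to pyruvate and lactate, the kinases that set the regulator fructose bisphosphate, the kinases that shut the pyruvate dehydrogenase complex, the hypoxia-inducible factors and a group of their known targets. Each gene was read from the brightest of its probe sets with 1 gene symbol, by the mean over 12 arrays. Of the 37 genes, 34 were measured and all 34 passed the filter on low signals, among 13165 genes tested of 19775 in all. The lactate transporters SLC16A1 and SLC16A3 and the carbonic anhydrase CA9 were not analysed here.

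PC9 and HCC827 are long-established cell lines from human lung adenocarcinoma, and both depend on an activated mutant EGFR. The groups were PC9 in 2 micromolar erlotinib, which blocks the kinase of EGFR, PC9 in DMSO, its solvent, HCC827 in 2 micromolar erlotinib and HCC827 in DMSO, each with 3 arrays. All cells were kept for 8 days in RPMI medium with fetal bovine serum, which was renewed after day 4. By the treatment notes the erlotinib cells were plated in larger number in flasks and the DMSO cells in smaller number in dishes, while the series description gives flasks for all, so vessel and plated cell number cannot be told apart from the drug. The values are linear MAS5 signals of probe sets. A change is the difference of log2(signal + 8), erlotinib minus DMSO, with its standard error from the fit over all 12 arrays. Folds are taken from such differences, also between the lines, and so compare signal + 8. Only the SLC2A3 folds against the table's median signal use the signals themselves. A gene was called at a limma adjusted p under 0.05. The labels do not state that replicate arrays are separate cultures, so p-values measure only the spread between these samples, which may be technical.

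Glycolysis splits glucose into pyruvate in the cytosol. Pyruvate is either reduced to lactate by lactate dehydrogenase or carried into mitochondria, where the pyruvate dehydrogenase complex turns it into acetyl-CoA for the citric acid cycle, and pyruvate dehydrogenase kinases (PDK) switch that complex off by phosphorylation. When oxygen is low, prolyl hydroxylases such as EGLN3 no longer mark the hypoxia-inducible factors HIF1A and EPAS1 for destruction, and the factors induce many glycolytic genes, PDK1, VEGFA and EGLN3 itself by binding DNA at a short core motif. In lung cancer cells driven by mutant EGFR, signalling from the receptor is known to promote glucose uptake and glycolysis.

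In PC9, 17 of the 34 genes (50%) fell under erlotinib and 6 (17.6%) rose, while 28.3% of all 13165 genes were called lower, 36.4% higher and 64.7% either way. In HCC827, 16 of the 34 (47.1%) fell and 6 (17.6%) rose, against 19.5% of all genes called lower, 32.3% higher and 51.8% either way. The median change over the 34 genes was -0.20 in PC9 and -0.11 in HCC827, beside medians of 0.048 and 0.067 over all genes tested in the same lines. Most listed genes are bright, and 31 passed a stricter filter at the 70th percentile of signal, as did 10034 genes in all. Of those 10034, 33% were lower and 35.8% higher in PC9, and 22.7% and 33% in HCC827. Medians over the 31 were -0.24 in PC9 and -0.12 in HCC827, beside 0.0088 and 0.046 over the 10034. Calls of at least 2-fold were few. In PC9, PDK4, EGLN3, SLC2A3 and ADM rose and PDK1, ENO2, HK2 and NDRG1 fell by that much, where 9.62% of all genes rose and 3.41% fell at least 2-fold. In HCC827 PDK4 alone rose at least 2-fold and 0 of the 34 fell so far, against 5.77% and 1.47% of all genes. With each array centred on its median the changes of all genes shifted down by 0.164 in PC9 and 0.117 in HCC827. All called genes then split into 3556 higher and 5367 lower in PC9, beside 4790 and 3731 without centring, and 3091 higher and 4014 lower in HCC827, beside 4247 and 2571. The listed genes then stood at 6 higher and 22 lower in PC9 and 4 higher and 18 lower in HCC827. Quantile normalization instead gave 6 higher and 15 lower in PC9 and 6 higher and 19 lower in HCC827. Of all genes, 32.6% were then called higher and 30.8% lower in PC9, and 30.7% and 21.5% in HCC827. The median change over the 34 was then -0.16 in PC9 and -0.18 in HCC827, beside 0.0026 and 0.044 over all genes.

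The lines shared 11 calls of the same direction. HK2, TPI1, ENO1, ENO2, LDHA, PDK1, BNIP3, NDRG1 and P4HA1 fell in both, which is 26.5% of the 34 genes, against 11.6% of all genes tested. PDK4 and ADM rose in both (20.3% of all genes did). A further 5 genes (14.7%) were called in opposite directions, against 5.39% of all genes: PFKFB2, PFKFB3 and EGLN3 rose in PC9 and fell in HCC827 (2.30% of all genes), and PFKP and EPAS1 fell in PC9 and rose in HCC827 (3.09%). The remaining calls were in 1 line. SLC2A3 rose and HK1, GPI, ALDOA, PGK1, PGAM1 and PKM fell in PC9 with no call in HCC827, and PDK2 and PDK3 rose and SLC2A1, PFKFB4, HIF1A and VEGFA fell in HCC827 with no call in PC9. PFKL, PFKM, ALDOC, GAPDH and LDHB were called in neither. In such bulk samples fewer cells that express a gene and less RNA per cell cannot be told apart. Arrays of erlotinib and DMSO did not overlap for 6 genes that were higher and 15 that were lower in PC9, where 36.6% of all genes were higher, 28.4% lower and 64.9% either without overlap. In HCC827 they did not overlap for 6 higher and 16 lower genes, against 37.7%, 24.5% and 62.2% of all genes.

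**Figure D1:**
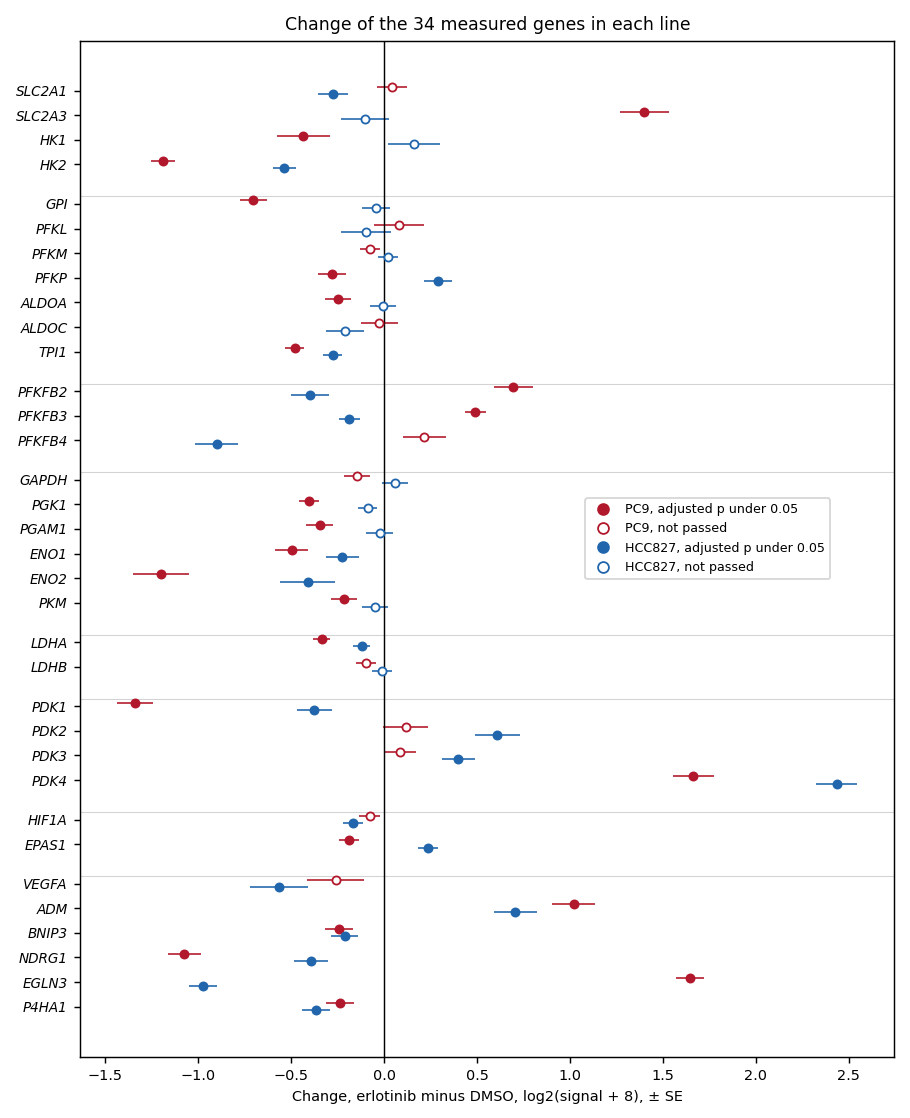
Change of each of the 34 measured genes under erlotinib (x axis, difference of log2(signal + 8), erlotinib minus DMSO, with bars of ± 1 SE), in order of their role, with PC9 in red and HCC827 in blue and filled points for an adjusted p under 0.05. PDK4 stood at 1.66 in PC9 and 2.43 in HCC827, EGLN3 at 1.65 and -0.97, HK2 at -1.19 and -0.54 and LDHA at -0.34 and -0.12.

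The core of the motif bound by hypoxia-inducible factors was searched, as ACGTG or GCGTG on either strand, in the window of 250 bases before to 50 bases after the annotated start of each gene (RefSeq, GRCh38.p14). Of the 37 genes, 32 had a window in that table and 22 of these (68.8%) held the motif, against 13213 of 27305 windows of the same length (48.4%). Among the genes called lower in both lines it was in 6 of 8 windows, and among those called higher in both in 1 of 2. The listed genes tested and not lower in both held it in 15 of 22 windows (68.2%). A match of these letters is not a measured binding site. Windows are shown for HK2, LDHA and ENO1, which fell in both lines, for ADM, which rose in both, and for EGLN3, which moved in opposite directions. They are chr2:74833877-74834176 (plus strand) for HK2, chr11:18394313-18394612 (plus) for LDHA, chr1:8878637-8878936 (minus) for ENO1, chr11:10304823-10305122 (plus) for ADM and chr14:33951025-33951324 (minus) for EGLN3, read 5′ to 3′ along the gene with the motif, or its reverse complement CACGT or CACGC, in capitals.
HK2: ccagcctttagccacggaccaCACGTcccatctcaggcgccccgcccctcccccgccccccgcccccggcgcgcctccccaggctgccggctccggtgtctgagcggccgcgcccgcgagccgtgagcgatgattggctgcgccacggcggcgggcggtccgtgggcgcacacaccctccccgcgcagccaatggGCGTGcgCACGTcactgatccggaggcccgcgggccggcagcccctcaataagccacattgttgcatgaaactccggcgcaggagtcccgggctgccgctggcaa
LDHA: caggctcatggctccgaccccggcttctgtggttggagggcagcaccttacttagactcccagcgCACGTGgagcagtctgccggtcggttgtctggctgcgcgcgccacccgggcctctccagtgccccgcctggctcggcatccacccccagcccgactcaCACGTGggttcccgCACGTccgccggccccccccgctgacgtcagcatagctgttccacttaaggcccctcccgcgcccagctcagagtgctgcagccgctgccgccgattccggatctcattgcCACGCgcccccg
ENO1: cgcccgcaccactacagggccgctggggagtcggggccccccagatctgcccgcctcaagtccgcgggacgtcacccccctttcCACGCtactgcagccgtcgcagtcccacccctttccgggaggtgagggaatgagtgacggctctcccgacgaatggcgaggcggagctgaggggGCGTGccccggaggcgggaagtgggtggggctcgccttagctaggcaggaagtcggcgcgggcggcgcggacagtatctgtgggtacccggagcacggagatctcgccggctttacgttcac
ADM: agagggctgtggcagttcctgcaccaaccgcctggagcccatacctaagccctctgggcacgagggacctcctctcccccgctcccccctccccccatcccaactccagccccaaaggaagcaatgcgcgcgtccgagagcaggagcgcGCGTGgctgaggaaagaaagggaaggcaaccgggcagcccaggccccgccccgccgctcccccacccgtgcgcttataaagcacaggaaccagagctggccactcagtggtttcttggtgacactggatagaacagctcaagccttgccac
EGLN3: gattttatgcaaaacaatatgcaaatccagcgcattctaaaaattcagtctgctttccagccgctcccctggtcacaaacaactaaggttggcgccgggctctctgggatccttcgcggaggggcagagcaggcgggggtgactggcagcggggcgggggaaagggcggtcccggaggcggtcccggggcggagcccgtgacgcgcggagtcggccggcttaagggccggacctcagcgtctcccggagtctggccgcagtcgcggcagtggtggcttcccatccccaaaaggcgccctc
HK2 held 1 match on the strand of the gene and 2 on the other, LDHA 2 and 4, of which the matches within CACGTG overlap on the 2 strands, ENO1 1 and 1, and ADM 1 and 0. The EGLN3 window held no match, which says only that these letters are not in these 300 bases.

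Among the genes of glucose uptake and trapping, SLC2A3 rose in PC9, HK2 fell in both lines, HK1 fell in PC9 and SLC2A1 fell in HCC827. SLC2A3 encodes GLUT3, a glucose transporter of high affinity. Its signals were 1462, 1324 and 1375 on the PC9 erlotinib arrays, against 461, 541 and 564 on the PC9 DMSO arrays. The groups lay far apart, and the change was 1.40 ± 0.13 (2.64-fold, adjusted p = 8.89e-08). In HCC827 all 6 arrays lay between 5.1 and 10.1, under the table's median signal of 13, so that no change of SLC2A3 could be read there and its difference between the lines rests on PC9. Against that median as a floor, SLC2A3 was at least 106.7-fold higher in PC9 than in HCC827 under erlotinib and at least 40.1-fold higher in DMSO. The other 2 probe sets of SLC2A3 rose in PC9 as well, by 1.59 and 1.66, and in HCC827 they were called higher, by 0.35 and 0.37, on arrays that all stayed under 13. The near-identical gene SLC2A14 may share these probes.

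SLC2A1 encodes GLUT1, the transporter that most cells use for basal glucose uptake. Its signals were 478, 464 and 515 in PC9 erlotinib, against 501, 475 and 439 in PC9 DMSO, and these overlapped. In HCC827 erlotinib they were 617, 721 and 618, against 768, 852 and 750.3 in HCC827 DMSO. Every HCC827 erlotinib array was below every DMSO array, with a change of -0.28 ± 0.079 (adjusted p = 0.00782), while PC9 did not pass the test (0.042 ± 0.079, adjusted p = 0.659). The second probe set of SLC2A1 also fell in HCC827, by 0.57. With the actin signal ratio, a measure of RNA integrity, as a covariate SLC2A1 did not pass in HCC827 (-0.22, adjusted p = 0.186).

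HK2, the inducible hexokinase that phosphorylates glucose and binds mitochondria, had signals of 670.4, 575 and 609 in PC9 erlotinib, against 1324, 1456 and 1483 in PC9 DMSO. In HCC827 erlotinib its signals were 942, 942 and 980.2, against 1354, 1368 and 1443 in HCC827 DMSO. In DMSO the difference of HK2 between the lines did not pass the test (PC9 minus HCC827 0.032 ± 0.063, adjusted p = 0.659), and the fall was larger in PC9. It was -1.19 ± 0.063 in PC9 (2.28-fold, adjusted p = 1.06e-10) and -0.54 ± 0.063 in HCC827 (1.45-fold, adjusted p = 3.06e-06), a difference of -0.65 ± 0.09 (adjusted p = 2.17e-05). A dimmer probe set of HK2 fell by 0.39 in PC9 but was 0.36 higher in HCC827, and with the mean of all its probe sets HK2 was -0.56 in PC9 (adjusted p = 1.6e-05) and did not pass in HCC827 (-0.088, adjusted p = 0.353). HK1, the hexokinase expressed in most tissues, had 247, 357 and 277 in PC9 erlotinib, against 464, 341 and 389.9 in PC9 DMSO. In HCC827 HK1 had 186, 253 and 255 under erlotinib, against 193, 227 and 195 in DMSO. These groups overlapped in both lines. HK1 was called lower in PC9 (-0.43 ± 0.14, adjusted p = 0.0136), a call that ended without erlotinib replicate 1 (adjusted p = 0.0794) or DMSO replicate 1 (adjusted p = 0.0685).

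**Figure D2:**
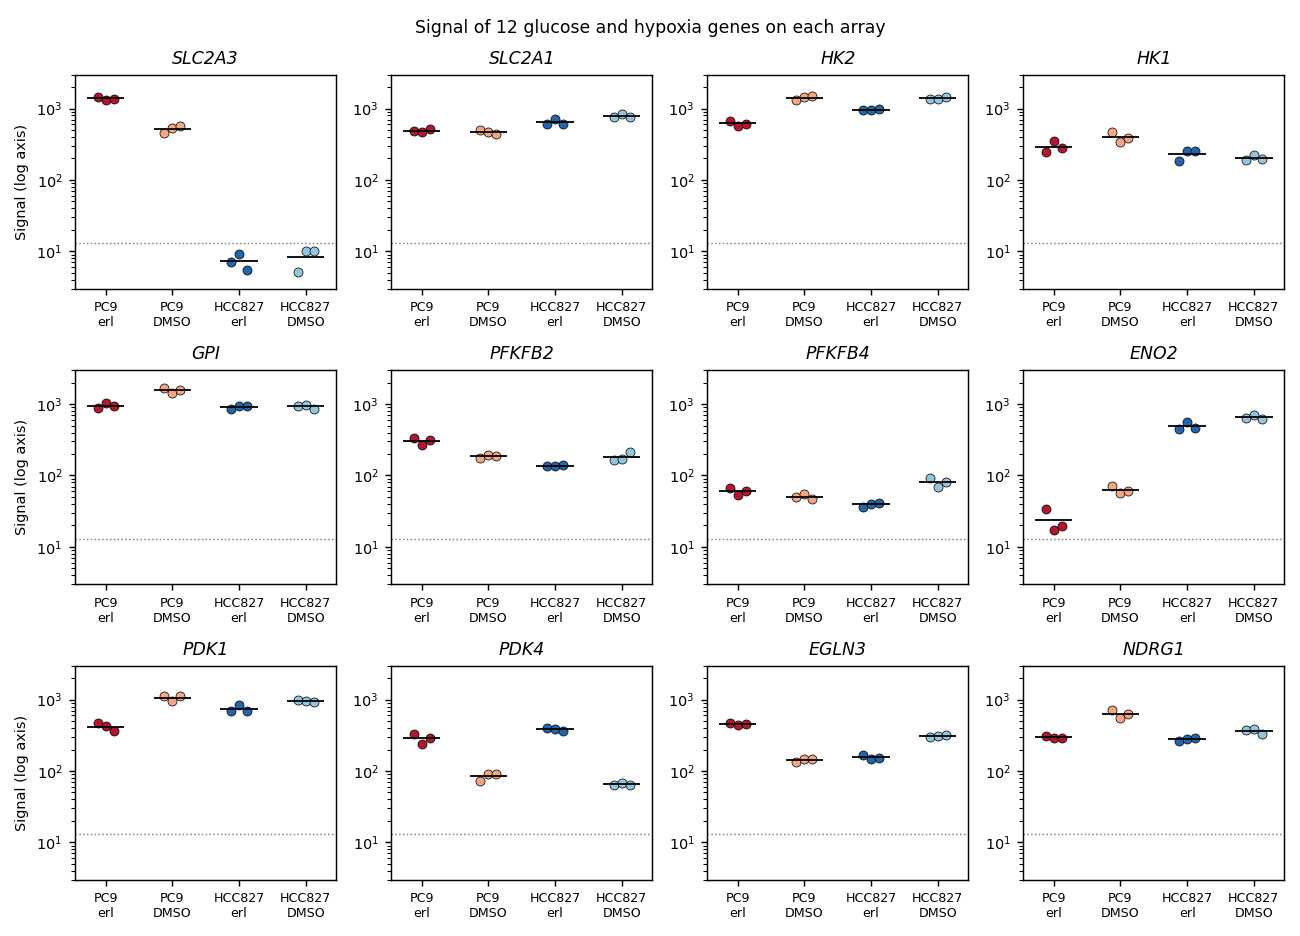
Signal of selected genes on each array (y axis, linear MAS5 signal on a log scale), by group from left to right PC9 erlotinib, PC9 DMSO, HCC827 erlotinib and HCC827 DMSO; points are arrays, bars the group mean, and the dotted line the table's median signal of 13. SLC2A3 lay below that line on all 6 HCC827 arrays, PDK4 was higher with erlotinib in both lines, and EGLN3 was higher with erlotinib in PC9 and lower in HCC827.

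Of the 7 enzymes of upper glycolysis, from glucose phosphate to the triose phosphates, 4 fell in PC9 and none rose, while in HCC827 TPI1 fell and PFKP rose. In PC9 57.1% were thus lower, against 28.3% of all genes, where 36.4% were higher. In HCC827 14.3% were lower and 14.3% higher, under the 19.5% and 32.3% of all genes. GPI, which turns glucose 6-phosphate into fructose 6-phosphate, had 892, 1036 and 932 in PC9 erlotinib, against 1669, 1448 and 1557 in PC9 DMSO. Its HCC827 signals of 841, 932 and 931 under erlotinib, against 943, 985 and 860.2 in DMSO, overlapped. The change was -0.70 ± 0.073 in PC9 (1.63-fold, adjusted p = 3.41e-07) and -0.044 ± 0.073 in HCC827 (adjusted p = 0.64), and the lines differed by -0.66 ± 0.10 (adjusted p = 8.31e-05). Phosphofructokinase, the committing step, has 3 isoenzymes. PFKP, its platelet form, had 646, 712 and 661 in PC9 erlotinib, against 887, 756 and 822 in PC9 DMSO, and 1001, 1204 and 1139 in HCC827 erlotinib, against 875, 954 and 892 in HCC827 DMSO. Its arrays did not overlap in either line and moved in opposite directions, by -0.28 ± 0.076 in PC9 (adjusted p = 0.00366) and 0.29 ± 0.076 in HCC827 (adjusted p = 0.00404), a difference of -0.57 ± 0.11 (adjusted p = 0.000395). With the mean of all probe sets PFKP passed neither in PC9 (-0.15, adjusted p = 0.115) nor in HCC827 (0.11, adjusted p = 0.292). The difference did not pass either (-0.26, adjusted p = 0.0815). The only other probe set of PFKP was too dim to test, with signals of 1.1 to 5.1. The liver form PFKL (0.08 in PC9 and -0.097 in HCC827) and the muscle form PFKM (-0.077 and 0.021) were called in neither line. The rise of PFKP in HCC827 ended with median centring (0.18, adjusted p = 0.0594) and with the actin ratio as a covariate (0.23, adjusted p = 0.144).

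TPI1, which interconverts the triose phosphates, had 1634, 1758 and 1794 in PC9 erlotinib, against 2333, 2446 and 2459 in PC9 DMSO, and 2078, 2157 and 2311 in HCC827 erlotinib, against 2558, 2691 and 2682 in HCC827 DMSO. Erlotinib arrays were lower in both lines without overlap, by -0.48 ± 0.051 in PC9 (adjusted p = 4.55e-07) and -0.28 ± 0.051 in HCC827 (adjusted p = 0.000268). The difference between the lines, -0.20 ± 0.072 (adjusted p = 0.0314), became -0.034 with quantile normalization (adjusted p = 0.654). A dim probe set of TPI1 was 0.30 higher in PC9, and with the mean of all probe sets the PC9 change was -0.19 (adjusted p = 0.00426). The aldolases split fructose bisphosphate. ALDOA, the main form, fell in PC9 by 0.25 on the log2 scale (adjusted p = 0.00521) with -0.0059 in HCC827 (adjusted p = 0.952). All 3 probe sets of ALDOA fell in PC9, and 1 of them also fell in HCC827 (-0.32, adjusted p = 0.000351). Another was 0.16 in HCC827 without a call. ALDOC, the brain form, passed in neither line (-0.026 in PC9 and -0.21 in HCC827, adjusted p = 0.836 and 0.0936).

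The PFKFB enzymes make and remove fructose 2,6-bisphosphate, the strongest activator of phosphofructokinase. They separated the lines: 2 of the 3 rose in PC9 and all 3 fell in HCC827. Of all genes tested, 36.4% were called higher in PC9 and 19.5% lower in HCC827. PFKFB2, the form known from heart, had 333, 269.9 and 311 in PC9 erlotinib, against 173, 192 and 189 in PC9 DMSO, and 135, 134 and 141 in HCC827 erlotinib, against 166, 168 and 217 in HCC827 DMSO. Its change was 0.69 ± 0.10 in PC9 (1.62-fold up, adjusted p = 1.92e-05) and -0.40 ± 0.10 in HCC827 (1.32-fold down, adjusted p = 0.00416). PFKFB3, the inducible form that mostly acts as the kinase, had 1918, 1868 and 1861 in PC9 erlotinib, against 1418, 1243 and 1360.0 in PC9 DMSO, and 1642, 1753 and 1866 in HCC827 erlotinib, against 1969.8, 2017 and 1997 in HCC827 DMSO. Here too no arrays overlapped within a line, and the changes were 0.49 ± 0.056 in PC9 (adjusted p = 1.1e-06) and -0.19 ± 0.056 in HCC827 (adjusted p = 0.0108). PFKFB4, first known from testis and inducible by hypoxia, had 66.7, 53.9 and 60.0 in PC9 erlotinib, against 50.5, 54.2 and 47.1 in PC9 DMSO, and 36.3, 40.3 and 41.2 in HCC827 erlotinib, against 91.8, 69.3 and 80.8 in HCC827 DMSO. It fell in HCC827 by 0.90 (adjusted p = 6.54e-06), whereas its PC9 arrays overlapped (0.22 ± 0.11, adjusted p = 0.108). The PC9 change exceeded the HCC827 change by 1.09 ± 0.15 for PFKFB2 (adjusted p = 1.74e-05), 0.68 ± 0.08 for PFKFB3 (adjusted p = 4.33e-06) and 1.12 ± 0.16 for PFKFB4 (adjusted p = 3.73e-05). The fall of PFKFB3 in HCC827 did not pass without erlotinib replicate 1 (-0.14, adjusted p = 0.0579). With the mean of all probe sets PFKFB2 was 0.32 in PC9 (adjusted p = 0.0045) and PFKFB4 was -0.47 in HCC827 (adjusted p = 0.000922). The difference between the lines for PFKFB4 was then 0.57 (adjusted p = 0.00367). The only other probe set of PFKFB4 was too dim to test, with signals of 1.4 to 11.1.

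Of the 6 enzymes of lower glycolysis, from glyceraldehyde phosphate to pyruvate, 5 fell in PC9 and 2 in HCC827, and none rose in either line. That is 83.3% lower in PC9, against 28.3% of all genes, and 33.3% in HCC827, against 19.5%. Of all genes 36.4% and 32.3% were called higher. PGK1, the first enzyme of the pathway to yield ATP, had 1992, 2075 and 2157 in PC9 erlotinib, against 2705, 2791 and 2746 in PC9 DMSO, and 2513, 2799.8 and 2917 in HCC827 erlotinib, against 2883, 2931 and 2918 in HCC827 DMSO. It fell in PC9 (-0.40 ± 0.052, adjusted p = 3.52e-06) and its HCC827 arrays overlapped (-0.088 ± 0.052, adjusted p = 0.166). Its probe sets did not all give this difference: all 6 fell in PC9, but 5 also fell in HCC827, and with their mean the HCC827 change was -0.38 (adjusted p = 3.35e-06). PGAM1, a phosphoglycerate mutase, had 1426, 1726 and 1507 in PC9 erlotinib, against 2098, 1780.3 and 2049 in PC9 DMSO, and 1552, 1704 and 1667 in HCC827 erlotinib, against 1641, 1727 and 1633 in HCC827 DMSO. It fell in PC9 (-0.35 ± 0.072, adjusted p = 0.000505) and overlapped in HCC827 (-0.023 ± 0.072, adjusted p = 0.806).

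ENO1, the common enolase, had 1411, 1702 and 1245 in PC9 erlotinib, against 2006, 1995 and 2113 in PC9 DMSO, and 1446, 1607 and 1721 in HCC827 erlotinib, against 1826, 1987 and 1766 in HCC827 DMSO. It fell by 0.50 in PC9 (adjusted p = 0.000129) and by 0.23 in HCC827 (adjusted p = 0.0448); 3 of its probe sets were bright enough to test, and all 3 fell in both lines. ENO2, the neuronal enolase, had 33.9, 17.4 and 19.4 in PC9 erlotinib, near the table's median of 13, against 70.3, 57.4 and 61.0 in PC9 DMSO. In HCC827 it had 446, 559.7 and 466 under erlotinib, against 632, 708 and 622 in DMSO. The ENO2 groups were separate in both lines, and the changes were -1.20 ± 0.15 in PC9 (2.30-fold, adjusted p = 2.83e-06) and -0.41 ± 0.15 in HCC827 (adjusted p = 0.0301), a difference of -0.79 ± 0.21 (adjusted p = 0.00659). PKM, pyruvate kinase, fell by 0.21 in PC9 (adjusted p = 0.0128) and was -0.051 ± 0.069 in HCC827 (adjusted p = 0.559); its second probe set, which is dimmer, was 1.24 lower in HCC827 and 0.16 higher, without a call, in PC9. The PC9 call of PKM ended with quantile normalization (-0.13, adjusted p = 0.0676) and with the mean of both probe sets (-0.025, adjusted p = 0.792). GAPDH passed in neither line (-0.14 ± 0.069 in PC9, adjusted p = 0.0799, and 0.058 ± 0.069 in HCC827, adjusted p = 0.509). The HCC827 calls of ENO1 and ENO2 ended without HCC827 erlotinib replicate 1 (adjusted p = 0.19 for ENO1 and 0.107 for ENO2) or without DMSO replicate 2 (adjusted p = 0.165 and 0.106), among other settings.

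LDHA, the lactate dehydrogenase subunit that favours lactate, had 3219.8, 3438 and 3478 in PC9 erlotinib, against 4360.2, 4168 and 4266 in PC9 DMSO, and 2868, 3051 and 3150.3 in HCC827 erlotinib, against 3242, 3368 and 3249 in HCC827 DMSO. Erlotinib arrays were below DMSO arrays in both lines. The fall was 0.34 in PC9 (SE 0.045, adjusted p = 5.45e-06) and 0.12 in HCC827 (SE the same, adjusted p = 0.0319), a difference of -0.21 ± 0.063 (adjusted p = 0.011). LDHB, the subunit that favours pyruvate, had 3398, 3902 and 3646 in PC9 erlotinib, against 4008, 3802 and 3882 in PC9 DMSO, and 3064, 3326 and 3405 in HCC827 erlotinib, against 3152, 3324 and 3406 in HCC827 DMSO. These overlapped in both lines, and LDHB passed in neither (-0.097 ± 0.054 in PC9, adjusted p = 0.124, and -0.013 ± 0.054 in HCC827, adjusted p = 0.854). The HCC827 call of LDHA ended in 8 of the settings tried, among them without erlotinib replicate 1 (-0.084, adjusted p = 0.14). These signals stood near the brightest on the arrays, whose highest values were 4449.6 to 6031.

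The 4 pyruvate dehydrogenase kinases did not move together: PDK4 rose and PDK1 fell in both lines, and PDK2 and PDK3 rose in HCC827. PDK4, the form that fasting and fatty acid use are known to induce, had 333, 237 and 295 in PC9 erlotinib, against 73.4, 89.4 and 92.2 in PC9 DMSO, and 399.9, 388 and 368 in HCC827 erlotinib, against 63.5, 67.0 and 63.8 in HCC827 DMSO. Every erlotinib array was well above every DMSO array of its line. The rise was 1.66 ± 0.11 in PC9 (3.17-fold, adjusted p = 1.85e-09) and 2.43 ± 0.11 in HCC827 (5.4-fold, adjusted p = 4.79e-11), the largest change among the 34 genes in each line, although in PC9 that of EGLN3 lay within its error. The PC9 rise was smaller than the HCC827 rise by 0.77 (adjusted p = 0.000939). PDK4 was read by 1 bright probe set, since its other 2 stayed under the table's median. With the mean of all 3 its rise was 0.83 in PC9 and 1.02 in HCC827, and the difference between the lines did not pass (-0.19, adjusted p = 0.271).

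PDK1, a known target of HIF1A, had 466, 428 and 364 in PC9 erlotinib, against 1135, 951 and 1129 in PC9 DMSO, and 704, 848 and 687 in HCC827 erlotinib, against 996, 969.6 and 932 in HCC827 DMSO. All erlotinib arrays were below the DMSO arrays, by -1.34 ± 0.096 in PC9 (2.53-fold, adjusted p = 4.02e-09) and -0.37 ± 0.096 in HCC827 (1.3-fold, adjusted p = 0.00384), and the lines differed by -0.96 ± 0.14 (adjusted p = 2.94e-05). A second, dimmer probe set of PDK1 fell by 2.21 in PC9 and 0.95 in HCC827. PDK2, the form found in most tissues, had 41.7, 41.8 and 43.6 in PC9 erlotinib, against 34.4, 35.9 and 45.9 in PC9 DMSO, and 34.8, 42.0 and 46.4 in HCC827 erlotinib, against 23.9, 25.3 and 22.9 in HCC827 DMSO. PDK3 had 171, 176 and 155 in PC9 erlotinib, against 167, 143 and 161 in PC9 DMSO, and 190.3, 218 and 200.3 in HCC827 erlotinib, against 147, 153 and 155 in HCC827 DMSO. Both overlapped in PC9 and were separate in HCC827, where PDK2 rose by 0.61 ± 0.12 (adjusted p = 0.000486) and PDK3 by 0.40 ± 0.087 (adjusted p = 0.00111). With the actin ratio as a covariate neither passed in HCC827 (0.37, adjusted p = 0.11 for PDK2, and 0.34, adjusted p = 0.0662 for PDK3). The difference of PDK2 between the lines did not pass with that covariate (-0.26, adjusted p = 0.323) or with the mean of its probe sets (-0.15, adjusted p = 0.424). The other 4 probe sets of PDK3 were called lower in PC9, by 0.43 to 0.90, and not called in HCC827, so with the mean of all 5 PDK3 was -0.47 in PC9 (adjusted p = 0.000148) and -0.039 in HCC827 (adjusted p = 0.713).

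Between members of an isoenzyme family the ratio of signals on the same array shows unequal change, not relative amount, and 14 of the 15 listed pairs could be measured. Erlotinib and DMSO arrays did not overlap for 10 of the 14 ratios in PC9 (3 higher and 7 lower) and for 11 in HCC827 (4 higher and 7 lower). Of all single genes 64.9% and 62.2% did not overlap in the same lines. The share for ratios of other gene pairs was not computed, and several listed pairs have a gene in common. An exact two-sided permutation test of 3 arrays against 3 gives 0.1 at the smallest, so no single ratio could pass 0.05, and each ratio without overlap had p = 0.1. The largest shift was that of PDK1 relative to PDK4, with log2 ratios of 0.30 to 0.83 in PC9 erlotinib, against 3.30 to 3.81 in PC9 DMSO, and of 0.80 to 1.11 in HCC827 erlotinib, against 3.70 to 3.81 in HCC827 DMSO. The mean difference was -3.00 ± 0.22 (SE) in PC9 and -2.81 ± 0.099 in HCC827. PDK1 relative to PDK2 shifted by -1.46 ± 0.16 in PC9 and -0.98 ± 0.14 in HCC827. HK2 relative to HK1 shifted by -0.76 ± 0.27 in PC9 and -0.70 ± 0.16 in HCC827, and LDHA relative to LDHB by -0.24 ± 0.037 and -0.11 ± 0.034. PFKP relative to PFKL moved in opposite directions, by -0.36 ± 0.035 in PC9 and 0.39 ± 0.17 in HCC827. PFKFB4 relative to PFKFB2 shifted by -0.48 ± 0.065 in PC9 and -0.50 ± 0.16 in HCC827. ENO2 relative to ENO1 was -0.70 ± 0.30 in PC9 without overlap and overlapped in HCC827 (-0.19 ± 0.10, exact permutation p = 0.2). When all probe sets of a gene were averaged, PDK1 relative to PDK4 was -2.17 in PC9 and -1.53 in HCC827. PFKP relative to PFKL was then -0.19 in PC9 (-0.088 with quantile normalization instead). HK2 relative to HK1 was -0.12 in PC9 and -0.25 in HCC827, and PFKFB4 relative to PFKFB2 was -0.22 in PC9 and 0.11 in HCC827. The means of PDK4, PFKP and PFKFB4, among others, include probe sets too dim to test.

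**Figure D3:**
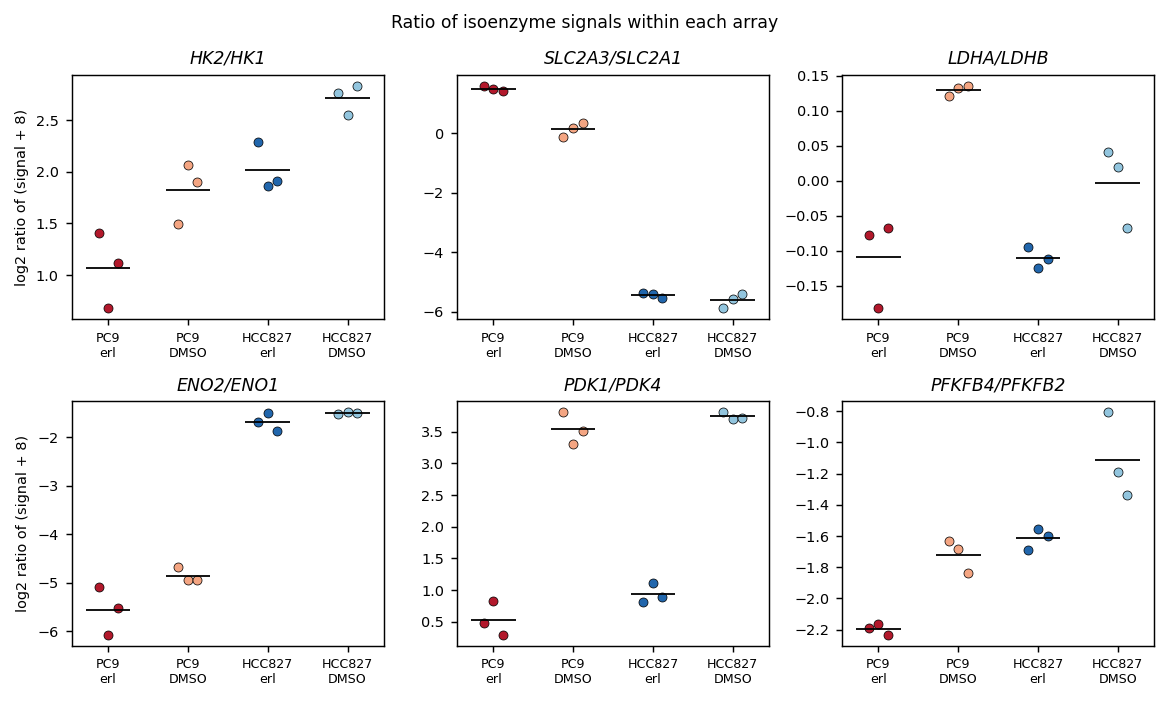
Log2 ratio of 2 isoenzymes on each array (y axis, no unit), with a panel for each of several pairs and, from left to right, PC9 erlotinib, PC9 DMSO, HCC827 erlotinib and HCC827 DMSO; points are arrays and bars group means, and the y axes differ between panels. The ratio of PDK1 to PDK4 was lower by 3.00 in PC9 and 2.81 in HCC827 with erlotinib, and that of HK2 to HK1 by 0.76 and 0.70.

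The hypoxia-inducible factors are controlled by oxygen mainly through the stability of their proteins, and the changes of their transcripts were small. HIF1A had 2691, 2816 and 2646 in PC9 erlotinib, against 2665, 3095 and 2862 in PC9 DMSO, and 2721, 2702 and 2999.5 in HCC827 erlotinib, against 3089, 3234 and 3128 in HCC827 DMSO. Its groups overlapped in PC9 and were separate in HCC827. It fell by 0.17 in HCC827 (SE 0.055, adjusted p = 0.0188) and was -0.078 ± 0.055 in PC9 (adjusted p = 0.229). The HCC827 call of HIF1A ended under 5 of 25 settings (adjusted p up to 0.0816), and in PC9 it was called lower under 2. EPAS1, which encodes HIF-2 alpha, had 1781, 1842 and 1825 in PC9 erlotinib, against 2134, 2042 and 2037 in PC9 DMSO, and 760.2, 749.5 and 711 in HCC827 erlotinib, against 652, 589 and 641 in HCC827 DMSO. Without overlap in either line, it fell by 0.19 in PC9 (adjusted p = 0.0056) and rose by 0.24 in HCC827 (adjusted p = 0.00152), and the lines differed by -0.43 ± 0.076 (adjusted p = 0.000274). Quantile normalization ended the PC9 call (-0.085, adjusted p = 0.157) and median centring the HCC827 call (0.12, adjusted p = 0.0815), and the difference between the lines passed under both. With the mean of all probe sets EPAS1 passed neither in PC9 (0.017, adjusted p = 0.896) nor in HCC827 (0.14, adjusted p = 0.256). The difference did not pass either (-0.13, adjusted p = 0.498). The other probe sets of EPAS1 were dim, with signals of at most 17.7.

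The 6 measured hypoxia targets did not follow a single direction. NDRG1, BNIP3 and P4HA1 fell in both lines and ADM rose in both. EGLN3 rose in PC9 and fell in HCC827, and VEGFA fell in HCC827. In PC9 2 rose and 3 fell (33.3% and 50%, against 36.4% and 28.3% of all genes). In HCC827 1 rose and 5 fell (16.7% and 83.3%, against 32.3% and 19.5% of all genes). EGLN3, the prolyl hydroxylase that marks the factors for destruction and is itself induced by them, had 477, 444 and 459 in PC9 erlotinib, against 132, 147 and 145 in PC9 DMSO. In HCC827 it had 167, 148 and 150.2 under erlotinib, against 301, 313 and 321 in DMSO. The order of the groups was thus reversed between the lines, with no overlap in either. EGLN3 rose by 1.65 ± 0.076 in PC9 (3.13-fold, adjusted p = 1.8e-11) and changed by -0.97 ± 0.076 in HCC827 (1.96-fold down, adjusted p = 2.48e-08). The difference, 2.62 ± 0.11 (adjusted p = 2.78e-11), was the largest among the 34 genes, and a second probe set gave 1.75 in PC9 and -1.25 in HCC827.

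ADM, which encodes the vasodilator peptide adrenomedullin, had 694, 926 and 821 in PC9 erlotinib, against 475, 345 and 376 in PC9 DMSO, and 194, 211 and 228 in HCC827 erlotinib, against 119.9, 133 and 126 in HCC827 DMSO. Erlotinib arrays were higher in both lines, by 1.02 ± 0.12 in PC9 (2.03-fold, adjusted p = 9.63e-07) and 0.70 ± 0.12 in HCC827 (1.63-fold, adjusted p = 9.26e-05). NDRG1, a gene known to respond to hypoxia and differentiation, had 309, 289 and 289.8 in PC9 erlotinib, against 715, 560.2 and 629.9 in PC9 DMSO, and 266, 277 and 288 in HCC827 erlotinib, against 381, 393 and 328 in HCC827 DMSO. It was lower without overlap in both lines, by -1.07 ± 0.09 in PC9 (2.11-fold, adjusted p = 2.52e-08) and -0.39 ± 0.09 in HCC827 (adjusted p = 0.00158), a difference of -0.68 ± 0.13 (adjusted p = 0.000405).

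VEGFA, the growth factor of blood vessels, averaged 1112 ± 79.0 in PC9 erlotinib and 1349 ± 261 in PC9 DMSO, and 739.6 ± 193 in HCC827 erlotinib and 1084 ± 155 in HCC827 DMSO (SD, n = 3 each). It fell in HCC827 (-0.57 ± 0.15, adjusted p = 0.00583) with arrays that overlapped, and did not pass in PC9 (-0.26 ± 0.15, adjusted p = 0.152). With the actin ratio as a covariate the HCC827 call ended (-0.61, adjusted p = 0.073). The other 3 probe sets of VEGFA fell further in HCC827, by 0.80 to 1.39, and 2 of them also fell in PC9, by 0.69 and 0.72. With the mean of all 4, VEGFA passed in PC9 too (-0.51, adjusted p = 2.02e-05). BNIP3, a protein of mitochondrial autophagy, fell by 0.24 in PC9 (adjusted p = 0.00941) and 0.21 in HCC827 (adjusted p = 0.0247). P4HA1, a subunit of the collagen prolyl hydroxylase, fell by 0.24 in PC9 (adjusted p = 0.012) and 0.37 in HCC827 (adjusted p = 0.000711). The BNIP3 calls ended without PC9 erlotinib or DMSO replicate 3 (adjusted p = 0.0532 and 0.0537) and, in HCC827, under 7 settings (adjusted p up to 0.156), and the PC9 call of P4HA1 ended without DMSO replicate 2 (adjusted p = 0.0633). The HCC827 call of P4HA1 ended with the mean of all its probe sets (-0.085, adjusted p = 0.51). Its only other probe set was too dim to test, with signals of 0.3 to 9.

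A further list of 19 hypoxia targets outside the 37 genes moved in both directions. Of 18 measured, 9 rose and 7 fell in PC9 (50% and 38.9%, against 36.4% and 28.3% of all genes) and 8 rose and 3 fell in HCC827 (44.4% and 16.7%, against 32.3% and 19.5%), with median changes of 0.14 and 0.13. TMEM45A had the largest rise, to 1669 ± 109 in PC9 erlotinib, against 366 ± 33.5 in PC9 DMSO (2.17 ± 0.11), and to 388 ± 41.3 in HCC827 erlotinib, against 109.7 ± 19.7 in HCC827 DMSO (1.76 ± 0.11). AK4, a mitochondrial adenylate kinase, and LOX, the collagen crosslinking oxidase, fell in PC9 and rose in HCC827. AK4 averaged 391 ± 21.2 in PC9 erlotinib and 1224 ± 52.6 in PC9 DMSO, and 1588 ± 30.7 in HCC827 erlotinib and 1341 ± 6.97 in HCC827 DMSO, with changes of -1.63 and 0.24 and a difference of -1.87 ± 0.077 (adjusted p = 2.9e-11). LOX changed by -1.62 in PC9 and, at signals of 14.3 to 25.7, 0.43 in HCC827. MXI1, a repressor that competes with MYC for MAX, rose in both lines (0.31 in PC9 and 1.30 in HCC827), and the secreted glycoprotein STC2 fell in PC9 (-0.29) and rose in HCC827 (1.04).

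**Figure D4:**
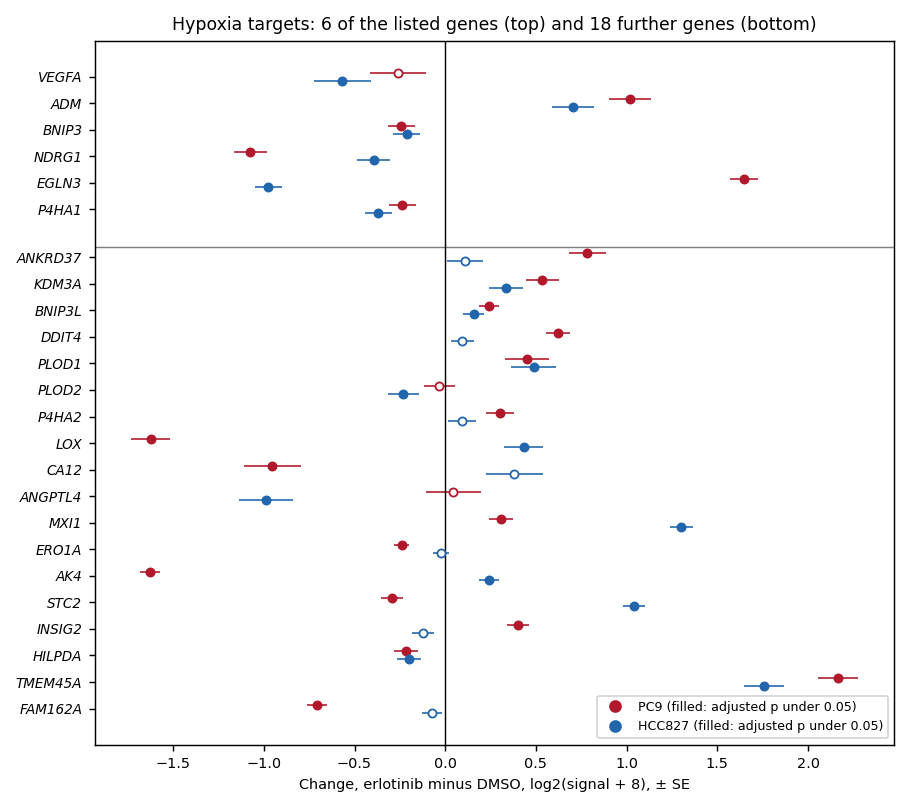
Change of each measured hypoxia target (x axis, difference of log2(signal + 8), erlotinib minus DMSO, with bars of ± 1 SE), 1 gene to a line of the plot, with the 6 listed targets above and the further 18 below; PC9 is in red and HCC827 in blue, and filled points have an adjusted p under 0.05. ADM and TMEM45A lay right of 0 in both lines, EGLN3 at 1.65 in PC9 and -0.97 in HCC827, and AK4 and LOX left of 0 in PC9 and right of it in HCC827.

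Among the partners and sensors of the hypoxia-inducible factors, 3 of 6 measured genes rose and 2 fell in PC9, and 1 rose and 1 fell in HCC827, against the 36.4% higher and 28.3% lower of all genes in PC9 and 32.3% and 19.5% in HCC827. ARNT, the common partner of both factors, rose in PC9 to 635 ± 39.8 under erlotinib, against 468 ± 28.2 in DMSO (0.43 ± 0.077, adjusted p = 0.00011), and was -0.00072 in HCC827 (adjusted p = 0.995). EGLN1, the main oxygen sensor among the prolyl hydroxylases, fell by 0.14 in PC9 (adjusted p = 0.0417) and 0.28 in HCC827 (adjusted p = 0.000667). EGLN2 had 32.8, 38.3 and 38.6 in PC9 erlotinib, against 12.7, 17.9 and 13.9 in PC9 DMSO, and was called higher there. ARNT2 had 9.2, 5 and 1.7 in PC9 erlotinib, against 19.4, 28 and 21.2 in PC9 DMSO, and 18.9, 16.7 and 20.6 in HCC827 erlotinib, against 0.9, 3.80 and 0.5 in HCC827 DMSO. It was called lower in PC9 and higher in HCC827, but in each line 1 group lay wholly under the table's median of 13, so no size is given. Unlike EGLN3, neither EGLN1 nor EGLN2 was called in opposite directions.

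Of 9 measured genes that carry pyruvate into the mitochondrion or serve its use there, 8 fell and 0 rose in PC9. That is 88.9%, against 28.3% of all genes called lower. In HCC827 2 fell and 0 rose (22.2%, near the 19.5% of all genes). The median changes were -0.32 in PC9 and -0.0094 in HCC827. Only MPC1 and MPC2 are carrier genes, and most of the others encode parts of pyruvate dehydrogenase. MPC1, a subunit of the mitochondrial pyruvate carrier, averaged 415 ± 26.5 in PC9 erlotinib and 751 ± 28.7 in PC9 DMSO, and 501 ± 32.8 in HCC827 erlotinib and 494 ± 9.58 in HCC827 DMSO (SD, n = 3 each). It changed by -0.85 ± 0.068 in PC9 (adjusted p = 1.56e-08) and 0.016 in HCC827 (adjusted p = 0.861), a difference of -0.86 ± 0.096 (adjusted p = 2.4e-06). DLAT, the acetyl-transferring subunit of pyruvate dehydrogenase, changed by -0.59 in PC9 (adjusted p = 1.6e-08) and -0.059 in HCC827 (adjusted p = 0.317). PDHX, which anchors another subunit to the complex, fell in both lines (-0.37 in PC9 and -0.23 in HCC827), and pyruvate carboxylase, PC, fell in HCC827 (-0.42) at signals under 40. Of 10 measured enzymes of the citric acid cycle, 7 fell in PC9 (70%, against 28.3% of all genes) and 2 in HCC827 (20%, near the 19.5% of all genes), and none rose, with medians of -0.26 and -0.10. IDH3A, a catalytic subunit of isocitrate dehydrogenase, had the largest change (-0.83 in PC9 and -0.23 in HCC827, difference -0.60, adjusted p = 0.000295). SUCLG1 and citrate synthase, CS, fell in PC9 (-0.48 and -0.32), and SUCLG2 in HCC827 (-0.16, adjusted p = 0.0499).

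Side routes of glucose were mixed. Of 13 measured genes of the pentose phosphate pathway and glycogen, 2 rose and 6 fell in PC9 (15.4% and 46.2%, against 36.4% and 28.3% of all genes) and 2 rose and 5 fell in HCC827 (15.4% and 38.5%, against 32.3% and 19.5%; medians -0.12 and -0.078). The glycogen phosphorylase PYGB fell in both lines (-0.69 in PC9 and -0.63 in HCC827), and its liver relative PYGL fell in PC9 (-0.22) and rose in HCC827 (0.29). RPIA, an isomerase of the pentose pathway, and PGM1, which links glycogen to glycolysis, fell in both lines (RPIA -0.61 and -0.26, PGM1 -0.34 and -0.21), and the lactonase PGLS rose in both (0.26 and 0.39). Of the isoenzymes restricted to some tissues, 8 of 15 were under the filter and 2 were not analysed here. Of the 5 tested, 4 rose and 1 fell in PC9 (80% and 20%, against 36.4% and 28.3% of all genes). In HCC827 3 rose and none fell (60%, against 32.3% of all genes called higher and 19.5% lower). SLC16A7, the lactate and pyruvate transporter MCT2, rose to 198 ± 40.3 in PC9 erlotinib, against 56.5 ± 4.78 in PC9 DMSO, and to 538 ± 40.3 in HCC827 erlotinib, against 318 ± 45.2 in HCC827 DMSO (1.66 in PC9 and 0.75 in HCC827, difference 0.91, adjusted p = 0.000629). The hexokinase relative HKDC1 fell in PC9 (-0.90) and rose in HCC827 (0.60, difference -1.50, adjusted p = 8.1e-09), and the liver pyruvate kinase PKLR rose in both (0.82 and 0.41).

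Among 7 measured genes of gluconeogenesis and of brakes on glucose use, 3 rose and 2 fell in PC9 and 1 rose and 1 fell in HCC827. In PC9 this was 42.9% and 28.6%, near the 36.4% and 28.3% of all genes. In HCC827 it was 14.3% and 14.3%, under the 32.3% and 19.5% of all genes. PCK2, the mitochondrial enzyme that makes phosphoenolpyruvate, rose in both lines (0.88 in PC9 and 0.61 in HCC827). TXNIP, an inhibitor of glucose uptake, rose in PC9 to 1661 ± 90.7 under erlotinib, against 1132 ± 26.4 in DMSO, and fell in HCC827 to 1085 ± 12.9 under erlotinib, against 1279.6 ± 70.3 in DMSO (difference 0.78 ± 0.078, adjusted p = 6.69e-07). FBP1, the fructose bisphosphatase that opposes phosphofructokinase, fell in PC9 (-0.65), and its HCC827 group means were 5.53 with erlotinib and 7.33 in DMSO, below the table's median. FBP2 had 14.1, 16.7 and 19.6 in PC9 erlotinib, against 6.40, 2.00 and 3.90 in PC9 DMSO, which lay under that median, and was called higher in PC9.

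In DMSO the lines already differed. Of the 34 genes, 15 were higher and 9 lower in PC9 than in HCC827 (70.6%), against 36.8% higher, 39.4% lower and 76.2% either way of all genes tested. Beside SLC2A3, EPAS1 was higher in PC9, with 2071 ± 54.5 in PC9 DMSO and 627 ± 33.9 in HCC827 DMSO (3.27-fold, adjusted p = 2.79e-14), and ADM, with 398 ± 68.0 and 126 ± 6.30 in the same order (3.00-fold, adjusted p = 2.17e-09). ENO2 was lower in PC9, with 62.9 ± 6.66 in PC9 DMSO and 654 ± 46.9 in HCC827 DMSO (9.34-fold, adjusted p = 5.49e-12), as were BNIP3 (3.23-fold) and EGLN3 (2.14-fold). These comparisons use the same DMSO arrays as the changes above.

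The change under erlotinib itself differed between the lines for 21 of the 34 genes (61.8%), against 45.2% of all genes. It was more positive in PC9 for 6 genes (21.3% of all genes) and more negative for 15 (24.0%), with a median difference of -0.20 over the 34, beside -0.021 over all genes. The 6 were EGLN3, SLC2A3, PFKFB4, PFKFB2, PFKFB3 and SLC2A1. The 15 were PDK1, ENO2, PDK4, NDRG1, GPI, HK2, HK1, PFKP, PDK2, EPAS1, PGAM1, PGK1, PDK3, LDHA and TPI1. Under quantile normalization the median difference over the 34 was smaller, -0.084, beside -0.042 over all genes. Then 7 of the 34 were more positive in PC9 and 13 more negative, against 19.2% and 24.9% of all genes. With the actin ratio as a covariate, or without HCC827 erlotinib replicates 2 and 3, 7 of the 34 were more negative in PC9 in place of 15, where 16.8% and 15.9% of all genes were under those settings.

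The labelled cell type and the quality of the arrays were checked in the same table. All 6 epithelial markers were well measured, with summed signals of 15027 to 17564 in PC9 erlotinib, 15094 to 16446 in PC9 DMSO, 13165 to 14418 in HCC827 erlotinib and 14066 to 14439 in HCC827 DMSO. All 4 measured leukocyte markers stayed under the table's median in every group. Of 4 endothelial markers VWF and KDR were under it everywhere, and PECAM1 and CDH5 were measured in PC9. The sum of the 4 was 653 to 705 in PC9 erlotinib, against 895 to 988 in PC9 DMSO, and 11.4 to 19.0 in HCC827 erlotinib, against 12.2 to 12.6 in HCC827 DMSO, and its part in the results was not tested. Of 4 fibroblast markers DCN and PDGFRB were under it everywhere, whereas the sum of the 4 was 379.8 to 458 in PC9 erlotinib, against 75.6 to 93.8 in PC9 DMSO, and 609.8 to 674 in HCC827 erlotinib, against 149.5 to 175 in HCC827 DMSO. LUM and COL1A1 rose in both lines, and their part in the results was not tested. The array medians were 11.1 to 14.5, and arrays of a group correlated with r of 0.9929 to 0.9973 across genes. The actin 3'/5' signal ratio, a measure of RNA integrity and labelling, was 2.22 ± 0.27 in PC9 erlotinib, against 2.18 ± 0.15 in PC9 DMSO, and 3.03 ± 0.598 in HCC827 erlotinib, against 2.17 ± 0.0563 in HCC827 DMSO (SD, n = 3 each). With that ratio as a covariate 10 of the 34 genes were called lower in HCC827 and 3 higher, in place of 16 and 6. Of all genes, 12.1% and 19.4% were called so under that setting. In HCC827 the ratio was 2.45 to 3.64 on the erlotinib arrays and 2.10 to 2.21 on the DMSO arrays, without overlap. The ratio and the drug thus cannot be told apart there, and a call lost with this covariate does not show its cause.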

How the data were processed

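Affymetrix HG-U133 Plus arrays were hybridised with RNA of 12 samples after RNeasy Plus purification and NuGEN Ovation amplification with biotin, per the labels' protocols. For every probe set on every array the authors deposited a linear intensity computed with MAS5, per the submitters' processing notes (its version not given in the sources used here). The values show that each array had been scaled to a 2% trimmed mean of 150. The table has no detection calls, so precision was judged from the signal over its median of 13, and the number of arrays limits it.

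The platform annotation gives a single gene symbol to 41091 of the 54675 probe sets, several symbols to 1801 and none to 11721, and 62 are controls. The brightest probe set per gene was used, for 19775 genes, and 13165 whose mean reached the median in at least 1 group were tested. GAPDH was read from a probe set that is not a control. Log2(signal + 8) was fitted with limma 3.58.1 (R 4.3.3) as a mean for each group over all 12 arrays, and variances were moderated with an intensity trend. P-values were adjusted by Benjamini-Hochberg over all 13165 genes. Isoenzyme ratios were compared by exact permutation of the arrays. Promoter windows and coordinates are from RefSeq (GRCh38.p14).

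The members, gene lists, pairs and alternatives were chosen with earlier results of these data known. Values are given per array for, in each role, the called gene with the largest change, its isoenzyme partner, and every gene called in opposite directions or with a called difference between the lines; of further lists, for up to 3 called genes per line. Alternatives were other added constants, quantile normalization, median centring, other filters, the mean of all probe sets, probe sets singly, no trend, the arrays of 1 line, the replicate number as a block, the actin ratio as a covariate and omission of arrays. The fit was tested on simulated data made for PC9 (13165 genes, 200 changed). It called 65% of the genes changed by log2 0.5 and 99% of those changed by log2 1, and made 8 false calls in PC9. Far fewer genes changed there than were called in the measured PC9 arrays (64.7%), so these rates need not hold for the measured data.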

Additional observations from a re-analysis of the deposited data

Results flagged for a closer look

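For 21 of the 34 genes the change under erlotinib differed between the lines by the test of the difference itself (limma, adjusted p under 0.05), and all values here are the PC9 change minus the HCC827 change on the log2 scale. The more positive ones were 2.62 for EGLN3, 1.50 for SLC2A3, which lay under the table's median in HCC827, 1.12 for PFKFB4, 1.09 for PFKFB2, 0.68 for PFKFB3 and 0.32 for SLC2A1. The more negative ones were -0.96 for PDK1, -0.79 for ENO2, -0.77 for PDK4, -0.68 for NDRG1, -0.66 for GPI, -0.65 for HK2, -0.59 for HK1, -0.57 for PFKP, -0.49 for PDK2, -0.43 for EPAS1, -0.32 for PGAM1, -0.32 for PGK1, -0.31 for PDK3, -0.21 for LDHA and -0.20 for TPI1. Of the 21, 9 passed with the same direction under every alternative that gave the difference (23 for PFKFB4, 24 for the others), namely EGLN3, SLC2A3, PFKFB4, PFKFB2, PFKFB3, PDK1, NDRG1, GPI and HK2. The other 12 lost the call under at least 1 alternative, and PDK3 lost it most often (adjusted p up to 0.279). Groups of 3 arrays are too small for a test of single outlying arrays.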

How the results depend on the processing

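Under 25 alternative settings, 17 of the 23 PC9 calls and 7 of the 22 HCC827 calls kept their direction and their side of the threshold in each setting that measured the gene; PFKFB4 fell out under the stricter filter. The 7 in HCC827 were TPI1, PFKFB4, PDK1, PDK4, ADM, NDRG1 and EGLN3, and the PC9 calls that did not were HK1, PFKP, PKM, EPAS1, BNIP3 and P4HA1. Counts over the genes moved as follows. The 6 genes higher in HCC827 became 3 with the mean of all probe sets, where 28.7% of all genes were higher, in place of 32.3%. With the actin ratio as a covariate they became 3 too, where 19.4% of all genes were higher. The 16 lower in HCC827 became 10 with that covariate (12.1% of all genes, in place of 19.5%). When single arrays were left out they were 10 to 16, where 16.6% to 20.5% of all genes were lower. The 10 were without HCC827 erlotinib replicate 1 (17.9% of all genes). The 15 with a more negative change in PC9 became 7 with the covariate (16.8% of all genes, in place of 24.0%). They were 11 to 19 when single arrays were left out, where the share of all genes was 21.1% to 24.3%. Over all genes, HCC827 calls numbered 4152 with that covariate, in place of 6818. With the mean of all probe sets the direction turned for PDK3 in PC9 (-0.47) and HCC827 (-0.039), EPAS1 in PC9 (0.017), the difference between the lines of TPI1 (0.038) and PKM (0.62), and the ratio of PFKFB4 to PFKFB2 in HCC827 (0.11). The ratio of ALDOC to ALDOA in PC9 turned to -0.049 with quantile normalization. The cause was not tested. Replicate numbers did not pair the arrays (r of same-numbered deviations -0.26 to 0.13), and with the number as a replicate block 8438 genes were called in PC9 and 6661 in HCC827, and of the listed genes' calls the block ended that of the difference for PDK3 (adjusted p = 0.0713) and no other. Signals near 13 have little precision.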

Other observations

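Of the 34 genes, 19 had more than 1 probe set bright enough to test. Called probe sets of the same gene opposed each other in PC9 for TPI1 and in HCC827 for HK2. All other probe sets gave another call than the brightest one for 5 genes in PC9 (PKM, LDHB, PDK2, PDK3 and EPAS1) and for 8 in HCC827 (SLC2A3, HK2, PGK1, PKM, PDK2, PDK3, EPAS1 and BNIP3). The second probe set of LDHB fell by 0.16 in PC9 (limma adjusted p = 0.0158), and that of PDK2 rose in PC9 (0.41, adjusted p = 0.0223) and did not pass in HCC827 (0.23, adjusted p = 0.22). The second probe set of EPAS1, at signals of 2.2 to 17.7, passed in neither line.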
